A study of Mus musculus with 45 samples.

Results

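The interferon regulatory factors (IRFs) are a family of transcription factors that share a DNA-binding domain and bind GAAA-rich elements in the promoters of interferon genes and of genes that interferon induces. Irf1, Irf2, Irf3, Irf4, Irf5, Irf7, Irf8 and Irf9 were taken by name from a deposited table of gene scores, so 8 of its 24333 genes are described. A gene score is a measure of chromatin accessibility: it sums ATAC fragments over and around a gene in a single nucleus, and it is not expression. Irf1 is set against the other 7 genes throughout.

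The nuclei came from mouse Ter119+ erythroblasts, red cell precursors sorted for the Ter119 surface protein, in which Stag2 was intact (WT, 3 libraries) or deleted (KO, 3 libraries). STAG2 belongs to cohesin, a ring-shaped complex that extrudes and holds chromatin loops. Both groups were sampled 6 to 8 weeks after dosing with pIpC ended; pIpC is a synthetic double-stranded RNA that is used to switch on gene deletion and that also induces interferon; WT and KO were both dosed, and whether it acted alike in them was not tested. The driver of the deletion and the age of the mice are not in the labels, which also do not say that the libraries came from separate animals; p-values then measure the spread between these libraries. Of the 45 samples of the series, the 6 accessibility libraries were used, and the question is how loss of Stag2 changed accessibility at each gene of the family.

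Within the family, IRF1 activates and IRF2 largely opposes it at the same elements. IRF3 and IRF7 wait in the cytoplasm until viral sensors activate them and then induce type I interferon, and IRF5 acts downstream of Toll-like receptors. IRF9 is part of ISGF3, the complex that carries the type I interferon signal to the nucleus. IRF4 and IRF8 act mainly in lymphoid and myeloid cells, often with the factor PU.1. Interferon gamma induces Irf1 itself through the GAS element in its promoter.

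The libraries held 4617 to 6990 nuclei and 46782673 to 66286151 fragments each, with a median of 7122.5 to 8874 fragments per nucleus. Per library, a median of 62.2% to 64.7% of the fragment ends of a nucleus lay in peaks in WT and 57.4% to 59.9% in KO; the part of this difference in the results was not tested. Of 34073 nuclei, 725 barcodes occurred in more than 1 library and were kept as separate nuclei. The authors assigned each nucleus a class (Early, Int or Late, where Int is read as intermediate) and 1 of 11 clusters. The gene score of Stag2 was 64.2, 65.7 and 65.9 in WT and 61.0, 65.1 and 62.4 in KO libraries, so the groups overlapped; a score over the whole gene need not show a deletion within it, and the labels were not checked by it. The summed score of 12 erythroid marker genes was 2524 to 2762 in WT and 2185 to 2401 in KO libraries and 10 of the 12 were lower in KO, as were 14.2% of all genes tested and 31.4% of those in the highest quartile of mean score. Their mean per gene was 208, against 12.6 to 27.7 for the marker lists of other cell types. No marker of the other cell types was at 0 in a library. The summed scores of 11 monocyte or macrophage markers overlapped (254.8 to 274.4 and 259.9 to 271.5), whereas those of 7 B cell markers (94.9 to 105 in WT, 115 to 130 in KO), 4 plasma cell markers (39.7 to 47.5 and 55.4 to 60.2) and 7 T or NK cell markers (79.2 to 90.1 and 108 to 116) were higher in every KO library; libraries did not overlap for 55.4% of single genes. Of the 7 T or NK cell genes only 2 scored high enough to be tested, and 1 of them was higher in KO, as were 29.1% of all genes tested. The sums of 8 neutrophil markers overlapped over all nuclei (182 to 225 and 208 to 237) but not in Int nuclei (146 to 170 in WT, 180 to 195 in KO), where 3 of 7 tested were higher and none lower; of all genes tested in Int nuclei, 12.7% were higher, 7.1% lower and 37.3% without overlap.

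The promoter sequence of Irf1 is shown first because Irf1 was the 1 member past the threshold described below, and those of Irf2 and Irf8 because they were the other members with a match to an interferon pathway motif. They are the 250 bases before the annotated start, from RefSeq (GRCm38.p6, the assembly of mm10), on the strand of the gene, which is the plus strand for each of them. Capitals mark the letters that match GAS (TTCNNNGAA) or the interferon-stimulated response element, ISRE (GAAA, any 2 bases, GAAA); both strands were searched.
Irf1, chr11:53769764-53770013: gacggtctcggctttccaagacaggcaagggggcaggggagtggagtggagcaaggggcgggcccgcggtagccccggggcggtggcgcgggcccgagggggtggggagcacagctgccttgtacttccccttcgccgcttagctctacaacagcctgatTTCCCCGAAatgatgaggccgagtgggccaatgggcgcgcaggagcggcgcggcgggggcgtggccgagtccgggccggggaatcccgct
Irf2, chr8:46739495-46739744: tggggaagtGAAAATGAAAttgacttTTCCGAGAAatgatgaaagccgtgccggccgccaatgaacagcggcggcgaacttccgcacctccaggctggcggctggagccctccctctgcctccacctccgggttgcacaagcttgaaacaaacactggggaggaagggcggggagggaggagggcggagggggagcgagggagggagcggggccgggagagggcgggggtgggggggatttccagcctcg
Irf8, chr8:120736108-120736357: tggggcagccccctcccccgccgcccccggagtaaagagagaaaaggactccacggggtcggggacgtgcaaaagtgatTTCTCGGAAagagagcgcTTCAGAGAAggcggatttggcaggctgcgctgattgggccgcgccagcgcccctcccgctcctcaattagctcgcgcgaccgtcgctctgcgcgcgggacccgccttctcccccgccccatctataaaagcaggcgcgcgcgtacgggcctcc

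Irf1 had 1 GAS match, 90 to 82 bases before the start. Irf2 had an ISRE match 241 to 232 bases and a GAS match 224 to 216 bases before the start. Irf8 had 2 GAS matches, at 171 to 163 and 153 to 145 bases. Among all 32851 windows of this length, 7.02% held GAS and 2.98% held ISRE. The GATA letters AGATAA, searched because GATA1 drives erythroid genes, occurred in 9.99% of the windows and in 1 window of the family, that of Irf9 (7 to 2 bases before its start). The windows of Irf3, Irf4, Irf5 and Irf7 held none of the 3 motifs. Irf1, Irf8 and Irf9 have a second annotated start, and its window held none of them either. These matches describe letters and not occupied sites.

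Irf1 was more accessible in KO than in WT nuclei, by 6.01 times, and it was the 1 member past the threshold. Scores are means over the nuclei of a library, scaled so that the genes of a library sum to 1000000; over all genes their median was 13.1. Over all nuclei, the score of Irf1 was 6.89, 8.39 and 5.94 in WT replicates 1 to 3 and 48.6, 41.4 and 37.6 in KO replicates 1 to 3. Each KO library was at least 4.48 times the highest WT library. The log2 fold change was 2.43 (SE 0.12; limma, adjusted p = 2.05e-10, n = 3 per group), the 3rd highest of 17682 genes tested. Changes between genotypes were common: 43.3% of the genes tested passed the threshold of 0.05, 29.1% higher and 14.2% lower in KO, so that passing it does not set Irf1 apart. Among genes in the same quartile of mean score as Irf1, 44.2% were higher in KO, with a median log2 fold change of 0.24.

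**Figure D1:**
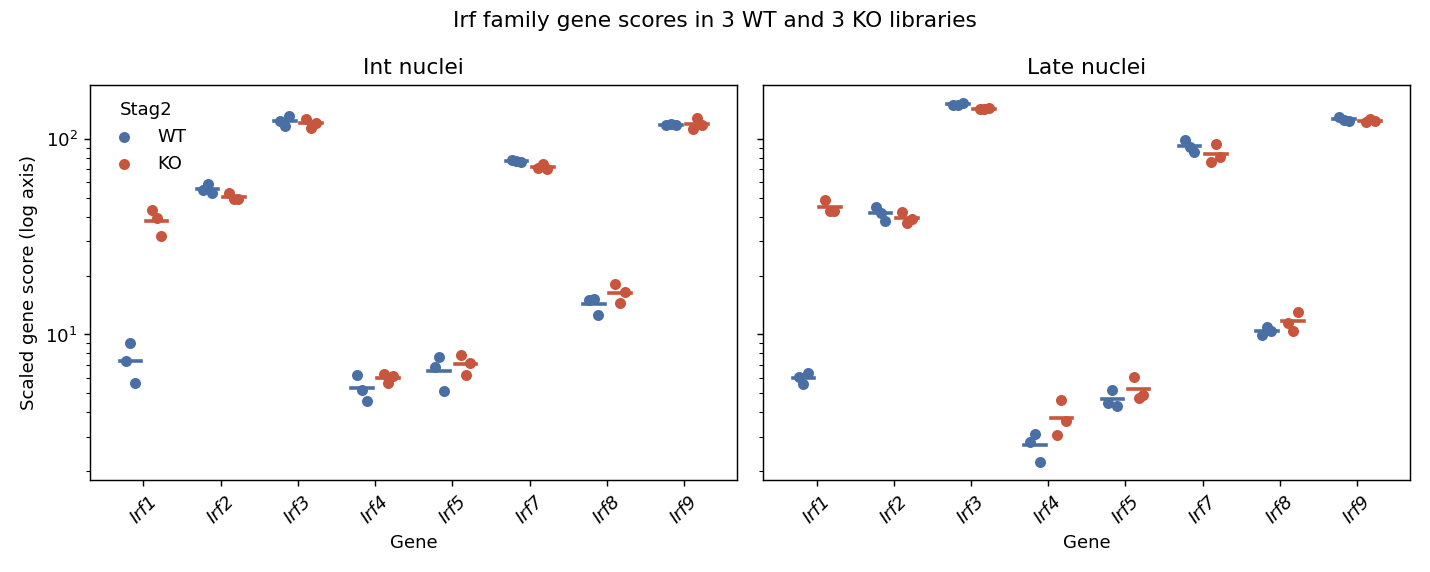
Scaled gene score (log axis) of each Irf gene in Int (left) and Late nuclei (right); a point is 1 library, a bar the mean of 3, WT in blue and KO in red. Irf1 is the gene whose points separate widely, 5.64 to 9.01 in WT against 31.9 to 43.1 in KO among Int nuclei.

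The same held within both classes. Among Int nuclei the score of Irf1 was 7.33, 9.01 and 5.64 in WT and 43.1, 39.3 and 31.9 in KO libraries (log2 fold change 2.24, SE 0.14; limma, adjusted p = 7.72e-12), and 19.8% of 19465 genes tested passed the threshold. Among Late nuclei it was 6.08, 5.58 and 6.32 in WT and 48.7, 42.8 and 42.9 in KO (log2 fold change 2.71, SE 0.086; limma, adjusted p = 1.10e-10), and 51.4% of 15886 genes passed it. In either class every KO library lay above every WT library; libraries of the genotypes were likewise apart (in either direction) for 37.3% of the genes tested in Int and 59.5% of those tested in Late nuclei. Irf1 ranked 3rd from the highest fold change in Int and 2nd in Late nuclei. Early nuclei numbered fewer than 50 in 3 libraries and were not tested.

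The 7 other members gave no call in any of these sets. Their log2 fold changes lay between -0.12 and 0.20 over all nuclei (6 tested, smallest limma adjusted p = 0.102), between -0.13 and 0.18 in Int (7 tested, smallest 0.130) and between -0.13 and 0.14 in Late nuclei (5 tested, smallest 0.121). Their medians were -0.041, 0.011 and -0.069, against 0.096, 0.057 and 0.052 over all genes tested. Irf4 was under the minimum mean score of 5 over all nuclei, and Irf4 and Irf5 were under it in Late nuclei, so these were not tested there.

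Irf2, the factor that shares elements with IRF1, scored 49.0, 51.8 and 46.6 in WT and 50.8, 43.0 and 44.3 in KO libraries over all nuclei. The groups overlapped, and the interval of the KO to WT ratio was 0.85 to 1.03 (95%, on the scale of score + 1). In Int nuclei the values were 55.0, 59.0 and 52.8 against 53.0, 49.5 and 49.4 (log2 fold change -0.13; limma, adjusted p = 0.130).

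Irf3, one of the sensors' targets, scored 139, 132 and 140 in WT and 131, 129 and 132 in KO libraries. Every KO library was below every WT library, which also held for 55.4% of all genes tested (in either direction), and the interval of the ratio was 0.90 to 1.01. Irf7, which amplifies the type I interferon response, scored 91.4, 83.7 and 79.9 in WT and 73.8, 85.7 and 75.1 in KO libraries. The highest KO library lay inside the WT range, and the interval was 0.85 to 1.0. Irf5 scored 5.31, 6.49 and 4.84 in WT and 7.61, 5.43 and 5.98 in KO libraries, with an interval of 0.93 to 1.35 and overlapping groups.

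Irf9, the DNA-binding subunit of ISGF3, scored 124, 121 and 120 in WT and 115, 126 and 120 in KO libraries. The KO values spanned the WT values, and the interval of 0.93 to 1.06 was among the narrowest of the family.

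Irf8, a factor of monocytes, dendritic cells and B cells, scored 11.7, 13.0 and 11.6 in WT and 15.4, 12.2 and 14.7 in KO libraries (log2 fold change 0.20; limma, adjusted p = 0.148). The groups overlapped through KO replicate 2. Irf4, a factor of B and plasma cells, scored 3.99, 4.22 and 3.59 in WT and 4.87, 5.09 and 4.86 in KO libraries, and the groups did not overlap, as for 55.4% of the genes tested. Without the filter on low scores its log2 fold change was 0.27 (limma, adjusted p = 0.0535). Irf8 shares a quartile of mean score with Irf1, and Irf5 lies in the lowest quartile tested, whose median log2 fold change was 0.27; Irf3, Irf7 and Irf9 lie in the highest, with a median of -0.071. Among markers of the cell types that use Irf4 and Irf8, 3 of 5 tested B cell and 3 of 3 tested plasma cell genes were higher in KO, where 29.1% of all genes and 41.7% and 44.2% of those in the lower quartiles of mean score were. Of 6 tested monocyte or macrophage genes none was higher and 1 lower. Of 5 dendritic cell genes 1 was higher and 1 lower, with summed scores of 134 to 150 in WT and 128 to 139 in KO libraries. The part of these cell types in the values of Irf4 and Irf8 was not tested.

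**Figure D2:**
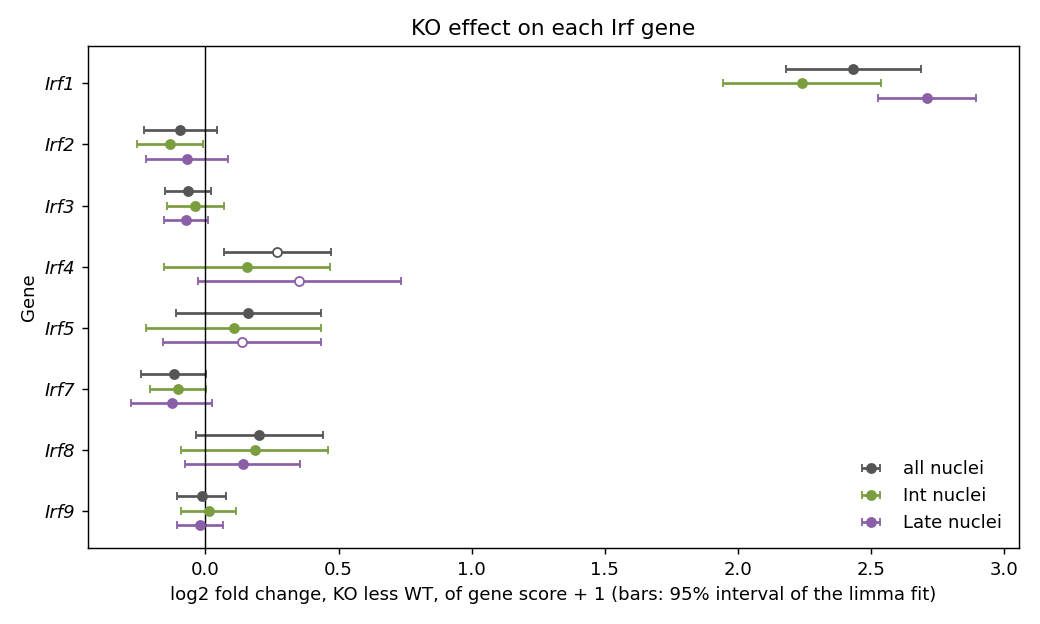
Log2 fold change of KO less WT for each Irf gene, with the 95% interval of the limma fit, over all nuclei (grey), Int (green) and Late nuclei (purple); open symbols are genes under the minimum score, taken from the fit without a filter. Irf1 lies at 2.24 to 2.71, the 7 other genes between -0.13 and 0.35.

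Set against its relatives within each library, which cancels the scaling of the library, Irf1 less the median of the other members was -2.64 ± 0.14 log2 units in WT and -0.12 ± 0.10 in KO libraries (SD, n = 3, all nuclei; exact permutation p = 0.1, two-sided, the smallest that 3 against 3 allows). The difference between genotypes was 2.53 over all nuclei, 2.37 in Int and 2.78 in Late nuclei, with the same exact p in each. In every library of these sets the median was the value of Irf2, so Irf1 was in effect set against Irf2. Against the mean of the other members the difference was 2.39, 2.21 and 2.66 (exact permutation p = 0.1 in each).

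More KO than WT nuclei had any signal at Irf1. Among Int nuclei with 5000 to 10000 fragments, where depth was alike, 3.21%, 4.82% and 2.25% of WT and 18.4%, 18.7% and 19.2% of KO nuclei had an Irf1 score above 0. The mean share was 5.48 times as high in KO, and the mean score of the nuclei above 0 was 1.16 times as high. With so few nuclei above 0, a higher mean score appears mainly in the share, so the ratios do not tell more accessible nuclei from more signal per nucleus. Among Late nuclei the shares were 4.10%, 2.86% and 4.16% in WT and 26.9%, 22.5% and 23.3% in KO, a ratio of 6.53, and the score ratio was 1.25. Both differences had an exact permutation p of 0.1, the smallest possible, and 0.8 and 0.267 after adjustment over the 8 members. Over all Int nuclei, which were deeper in KO (medians of 13911 to 14998 fragments against 10121 to 12877 in WT), the shares were 7.15% ± 2.29 and 31.4% ± 3.80 (SD, n = 3).

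For the other members the shares at matched depth differed far less. Irf3 had a score in 55.6% ± 1.77 of WT and 52.2% ± 1.62 of KO Late nuclei, and Irf7 in 33.2% ± 2.92 and 29.2% ± 1.86. For Irf3 every KO library lay below every WT library, narrowly at 53.59% against 53.64% (exact permutation p = 0.1, 0.267 after adjustment over the 8 members). Irf8 had a score in 21.3% ± 1.10 and 22.5% ± 2.60 of Late nuclei, overlapping between groups. Irf4 had one in 4.10% ± 0.77 and 5.53% ± 0.48 of Late nuclei, with every KO library above every WT library (exact permutation p = 0.1, 0.267 after adjustment over the 8 members); by score, 59.5% of the genes tested in Late nuclei did not overlap.

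**Figure D3:**
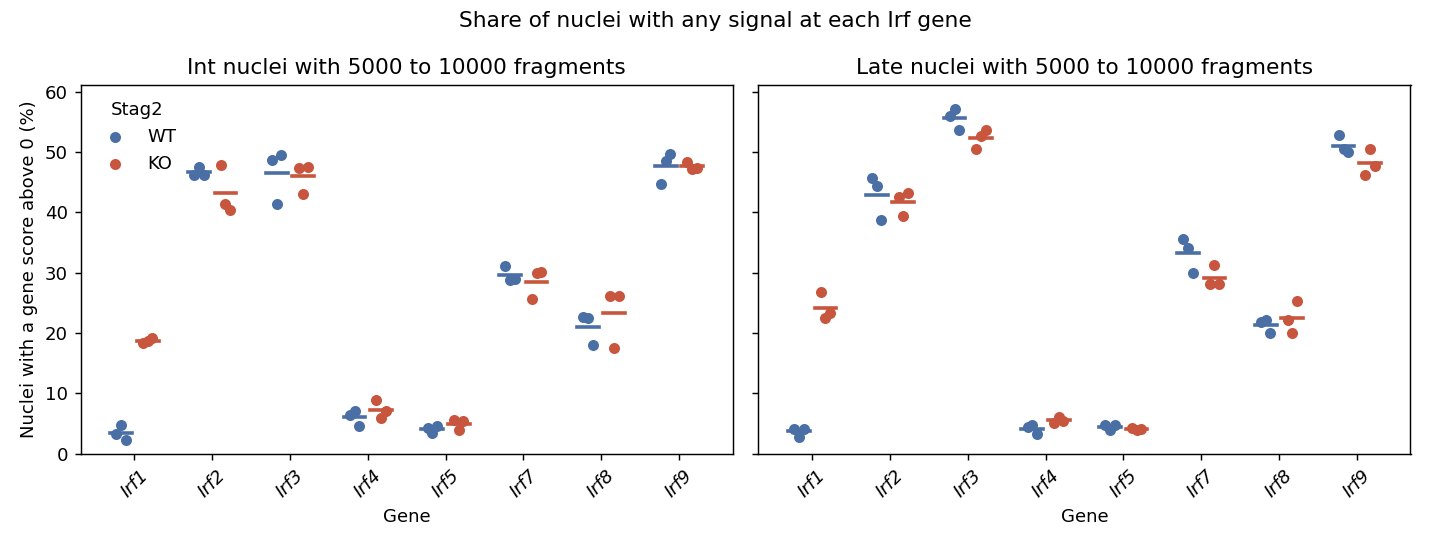
Percentage of nuclei with a gene score above 0 for each Irf gene, among Int (left) and Late nuclei (right) with 5000 to 10000 fragments; a point is 1 library and a bar the mean of 3. For Irf1 the Late libraries sit at 2.86% to 4.16% in WT and 22.5% to 26.9% in KO.

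The clusters, which the authors cut from these nuclei, are described with no test of one against another. Over the 33 combinations of cluster and library with at least 50 nuclei, Irf1 had a median score of 6.92 in 20 WT and 41.5 in 13 KO points. Most clusters held mainly 1 genotype. Among Int nuclei, WT cluster C9 had scores of 10.2, 14 and 6.43 and KO cluster C8 had 47.6, 47.8 and 36.1, and both were deep (medians of 16659 to 21520 fragments). WT cluster C11 had 7.36, 6.47 and 5.39 and KO cluster C10 had 41.5, 34.8 and 31.6. The lowest full set was WT cluster C6, at 2.17, 3.76 and 5.10. In Late nuclei, WT cluster C3 had 6.09, 4.97 and 6.26 and KO cluster C2 had 49.6, 42.8 and 42.4.

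Cluster C7 held mainly Early nuclei, and here Irf1 scored higher in WT than in most other WT clusters. Its score was 32.8 and 37.5 in WT replicates 1 and 2 and 90.2 in KO replicate 1, the 3 libraries with at least 50 nuclei, so there was no test. These WT values exceeded those of Irf1 in every other WT cluster point except 1 (C2 in WT replicate 2, at 40.7 from 58 nuclei). The KO value was the highest of the 33. Irf2 was also highest in C7 in both genotypes (104 and 96.6 in WT, 96.3 in KO) and was 38.8 to 45 in WT cluster C3 and 36.6 to 42.5 in KO cluster C2. Irf3 was ordered the other way, with 95.9 and 92.9 in WT C7 and 148 to 155 in C3, as was Irf9, with 87.5 and 83.5 against 122 to 129. The 3 libraries had medians of 40490 to 43439 fragments in C7, against at most 21520 in the other points. Depth was not matched, and its part in these values was not tested.

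Cluster C5, of Int nuclei, had at least 50 nuclei of every library and allowed a test within 1 cluster. Irf1 scored 12.5, 15.5 and 8.42 in WT and 38.4, 38.8 and 29.0 in KO libraries. The groups did not overlap, as for 19.6% of the genes tested there, and the log2 fold change was 1.49 (SE 0.25; limma, adjusted p = 0.0221), where 0.89% of 19438 genes passed the threshold, 0.412% higher and 0.478% lower in KO. It no longer passed when KO replicate 1, 2 or 3 was left out (adjusted p = 0.162, 0.185 and 0.0997, log2 fold changes 1.43, 1.42 and 1.63) or without the filter on low scores (0.127). Irf1 ranked 78th from the highest fold change in C5, and no other member passed there. Irf9 scored 91.4, 107 and 91.3 in WT and 110, 140 and 116 in KO libraries of C5 (limma, adjusted p = 0.285), and Irf2 scored 45.9, 65.1 and 61.2 against 47.6, 41.0 and 38.8 (adjusted p = 0.322).

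Cluster C2 also had nuclei of every library, but only 58 to 68 in each WT library, with medians of 1919.5 to 2258.5 fragments against 6091.5 to 6594 in KO. No gene of 17360 (0%) passed the threshold by limma, and 2190 had an unadjusted p under 0.05. Irf1 scored 9.10, 40.7 and 1.97 in WT and 49.6, 42.8 and 42.4 in KO libraries; the groups did not overlap, as for 25.8% of all genes tested (log2 fold change 2.09, SE 0.87; limma, adjusted p = 0.390). An Irf1 score above 0 was found in 1 of 64, 5 of 58 and 1 of 68 WT nuclei of C2 (95% Wilson intervals 0.28% to 8.33%, 3.74% to 18.6% and 0.26% to 7.87%), and in 22.6%, 19.4% and 19.7% of its KO nuclei. In WT-rich cluster C3 it was found in 3.90%, 3.26% and 3.51% of WT nuclei. The few KO nuclei of C3 gave 0 of 17, which allows a share of up to 17.6% by the rule of 3 counts (18.4% by the Wilson interval), 3 of 21 (Wilson, 4.98% to 34.6%) and 7 of 37 (9.48% to 34.2%). Intervals and limits cover counting error only, and depth was not matched in this comparison.

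**Figure D4:**
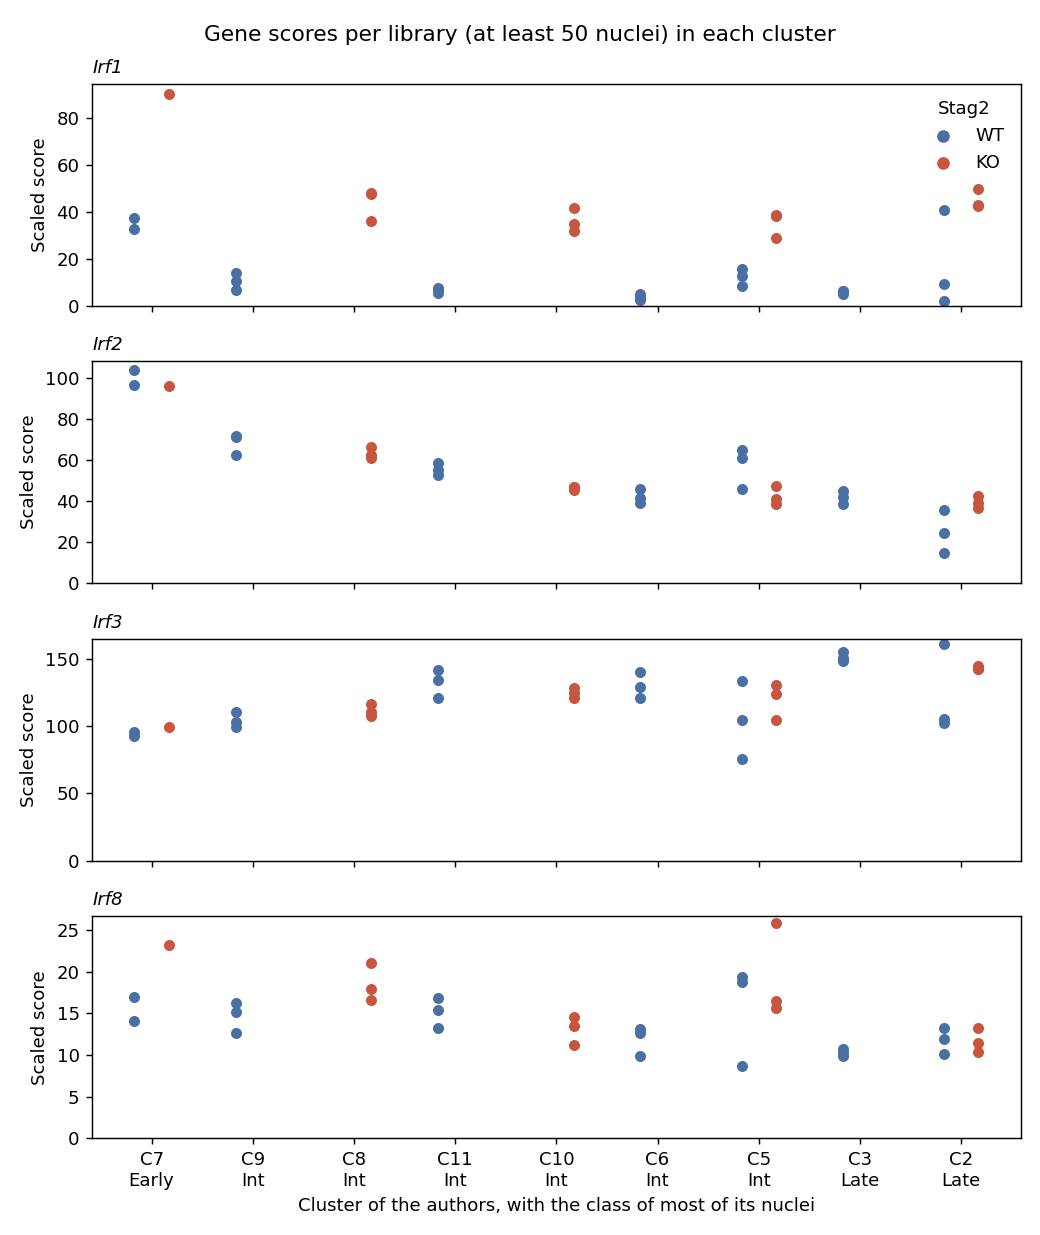
Scaled gene score of Irf1, Irf2, Irf3 and Irf8 in each cluster of the authors; a point is 1 library with at least 50 nuclei in that cluster, WT in blue and KO in red. Of the clusters with points of both genotypes (C2, C5 and C7), Irf1 is higher in KO in each, narrowly in C2 (40.7 in 1 WT library against 42.4 to 49.6 in KO), while Irf2 and Irf3 vary along the clusters, from 96.3 to 104 in C7 down to 36.6 to 45 in C3 and KO C2 for Irf2. The WT points of C2, from few nuclei, lie lower for Irf2, at 14.5 to 35.8.

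From Int to Late nuclei the members differed in direction, described here per library with no test. The authors cut these classes from the same nuclei. Median fragments per library were 10121 to 14998 in Int and 5693 to 6812 in Late nuclei. Depth was not matched in this description, and its part was not tested. How many of all genes moved alike in 6 of 6 libraries was not counted, so such agreement does not set a member apart. Irf2 was lower in Late in 6 of 6 libraries, with a difference of Late less Int of -0.41 ± 0.11 log2 units in WT and -0.35 ± 0.043 in KO (SD, n = 3). Irf4, Irf5 and Irf8 were also lower in 6 of 6. Irf3 and Irf7 were higher in 6 of 6 libraries, Irf3 by 0.28 ± 0.074 and 0.25 ± 0.078, and Irf9 was higher in 5 of 6. For Irf1 the difference of Late less Int was -0.23, -0.61 and 0.14 in WT and 0.17, 0.12 and 0.42 in KO libraries. The KO effect on Irf1 in Late less that in Int nuclei was 0.47 (SE 0.16, 95% interval 0.14 to 0.80; limma, adjusted p = 0.0861), where 6.41% of 15873 genes passed the threshold, 4.2% higher and 2.21% lower. Without WT replicate 3 it was 0.66 with an adjusted p of 0.00196. Among nuclei with 5000 to 10000 fragments it was 0.31 (95% interval -0.23 to 0.86, limma adjusted p = 0.714), the highest adjusted p over its alternatives. No relative passed in the main fit of this difference, where their values lay between -0.044 and 0.064.

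Around Irf1 (mm10 chr11:53770014-53778374, plus strand) 3 of 5 tested genes within 100 kb were higher in KO, as were 29.1% of all genes. Mir7671, a microRNA gene 6360 bases upstream, rose from 24.2, 26.4 and 20.9 to 95.2, 85.7 and 77.3 (log2 fold change 1.81, SE 0.080; limma, adjusted p = 3.85e-11). Gm12216, a gene model whose near end lies 7115 bases downstream, rose from 9.16, 11.5 and 8.40 to 21.6, 17 and 16.1 (log2 fold change 0.84). Il5, which encodes a cytokine of eosinophils, rose from 12.3, 12.8 and 10.7 to 20.3, 19.2 and 17.2 (0.62). Rad50, a DNA repair gene (-0.0047), and Slc22a5, a carnitine transporter (0.14; limma, adjusted p = 0.0659), did not pass; Slc22a5 passed without WT replicate 3 (0.22; adjusted p = 0.00536) and at 5000 to 10000 fragments (0.19; 0.0234). Neighbouring scores can hold the same fragments, and how the authors weighted fragments by distance is not given in the sources used here.

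Within 500 kb of the start of Irf1, 25 other genes were tested, of which 6 were higher and 2 lower in KO, no larger a share than among all genes (29.1% and 14.2%). The 21 whose start lay beyond 100 kb had log2 fold changes between -0.40 (Sowaha) and 0.39 (Leap2), and of these 3 were higher and 2 lower. Next to the relatives, the strongest tested genes within 100 kb were Gm16675 at Irf2 (-0.24), Cpt1c at Irf3 (0.37), Kcp at Irf5 (0.41), B230206H07Rik at Irf7 (-0.32) and Cpne6 at Irf9 (0.37), each past the threshold. That of Cpne6 was lost without KO replicate 1 or 2 (limma, adjusted p = 0.0526 and 0.0792), after median centring, quantile normalization or loess (0.23, 0.10 and 0.095; adjusted p = 0.0609, 0.434 and 0.472) and weighted by fragments (0.0862). Kcp did not pass after quantile normalization (0.13; limma, adjusted p = 0.159), after loess (0.18; 0.0561) or weighted by fragments (0.32; 0.134), nor did Cpt1c weighted by fragments (0.32; 0.0909). Exoc2, the 1 gene tested at Irf4, and Emc8, the strongest of 3 at Irf8, did not pass (-0.014 and -0.045), except after median centring (-0.16 and -0.19; limma, adjusted p = 0.0465 and 0.0440). At Irf7 7 of 14 tested neighbours were lower and none was higher, where 14.2% of all genes were lower and 29.1% higher. At Irf9 2 of 19 were higher and 5 lower. In the highest quartile of mean score, which holds Irf7 and Irf9, 31.4% of genes were lower and 7.98% higher. Many of the lower neighbours of Irf7 also had high scores. Some of these neighbours overlap and can hold the same fragments, so their calls are not separate signals.

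**Figure D5:**
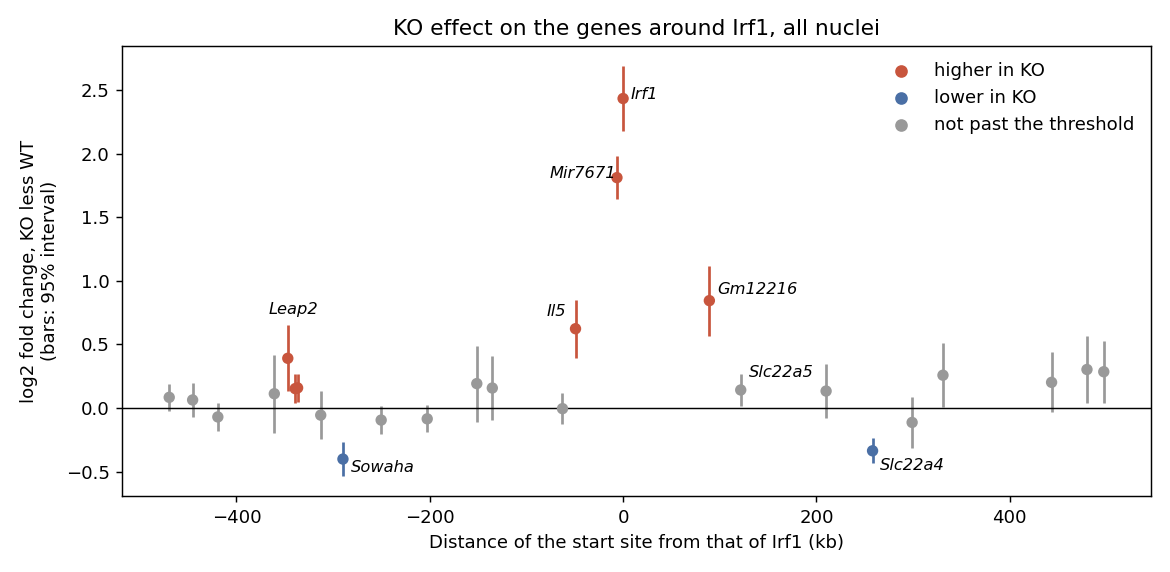
Log2 fold change of KO less WT, over all nuclei, with 95% intervals, of the tested genes within 500 kb of the start of Irf1, by distance of their start sites in kb; red is higher and blue lower at the threshold. The largest value is that of Irf1 (2.43), followed by Mir7671 (1.81), and beyond 100 kb values lie between -0.40 and 0.39.

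Across the 33 cluster by library points, the genes outside 1 Mb of Irf1 whose log2 score followed it most closely were Fbxo44 (Pearson r 0.93), 9330175E14Rik (0.91), Acot7 (0.90), Fbxo6 (0.90) and Socs3 (0.89). The points share libraries, genotype and depth, so the values are a description. Fbxo44 and Fbxo6, neighbouring genes for F-box proteins of ubiquitin ligases, and Acot7, an acyl-CoA thioesterase, lie on chromosome 4. Socs3, an inhibitor of cytokine receptor signalling, lies on chromosome 11 like Irf1, and scored 31.1, 34.2 and 29.2 in WT and 65.9, 62.9 and 71.9 in KO libraries (log2 fold change 1.06). The relatives were not among the closest: r was 0.52 for Irf4, 0.50 for Irf5, 0.38 for Irf8, 0.37 for Irf2 and between -0.23 and -0.22 for Irf3, Irf7 and Irf9, and at least 2253 genes had a higher r than any of them. Within 1 genotype, Irf1 and Irf2 had r 0.58 over the WT and 0.70 over the KO points, and Irf1 and Irf9 -0.60 and -0.73.

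Interferon receptor and kinase genes act upstream of the IRFs. Of 9, 1 was higher and 3 lower in KO over all nuclei, where 29.1% of all genes were higher and 14.2% lower, with a median log2 fold change of -0.030 against 0.096 for all genes. Listed genes that lie side by side can hold the same fragments, so the 3 lower calls need not be separate signals. Il10rb, a shared subunit of the lambda interferon and IL-10 receptors, scored 91.8, 82.3 and 78.7 in WT and 65.7, 71.8 and 70.4 in KO (-0.28). Ifnar2, a subunit of the type I interferon receptor, fell from 108, 104 and 102 to 87.3, 87.1 and 92.2 (-0.23), and Ifnlr1, the other lambda receptor subunit, rose (0.27). Ifnar2 scored above Irf7, a gene of the highest quartile of mean score, where 31.4% of genes were lower and 7.98% higher. Stat6, a transcription factor that serves IL-4 and IL-13, rose from 43.9, 41.8 and 40.0 to 51.0, 51.8 and 47.7 (0.25), but after median centring it was 0.11 and did not pass (limma, adjusted p = 0.184). The call of Ifnlr1 was lost when WT replicate 1 or 3 or KO replicate 1 was left out (limma, adjusted p = 0.122, 0.0732 and 0.217). It was also lost after median centring, quantile normalization or loess (0.12, 0.075 and 0.11; limma, adjusted p = 0.174, 0.486 and 0.297), and with another filter, weights, depth or no trend.

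Of 13 tested sensor, adaptor and kinase genes upstream of IRF3, IRF5 and IRF7 (16 listed), 5 were higher and 1 lower, where 29.1% of all genes were higher and 14.2% lower. The 5 became 3 without WT replicate 1, KO replicate 1 or KO replicate 2 and after quantile normalization or loess, 2 after median centring, and 1 with nuclei weighted by fragments. The 1 lower became 3 after median centring, 2 without KO replicate 3 and 0 weighted by fragments. Traf3, an adaptor of antiviral signalling, rose from 7.77, 10.5 and 7.49 to 17.8, 12.6 and 14 (0.72), and Zbp1, a nucleic acid sensor that was first known as an interferon-induced gene, from 10.4, 10.6 and 9.5 to 18.2, 15.9 and 16.5 (0.68). Ifih1, which encodes the RNA sensor MDA5, fell from 64.9, 61.5 and 60.7 to 50.3, 52.8 and 53.7 (-0.25). Weighted by fragments, Traf3 (0.71; limma, adjusted p = 0.0681) and Ifih1 (-0.16; adjusted p = 0.0805) did not pass. Of 10 partners and regulators, 4 were higher and 1 lower, against the same shares of all genes. The 4 became 2 after loess, without a filter or at 5000 to 10000 fragments, and 1 after quantile normalization or weighted by fragments. Here the 1 lower became 3 after median centring, and 0 weighted by fragments or without the trend. Socs1, an inhibitor of interferon receptor signalling, rose from 36.8, 46.2 and 39.1 to 68.9, 58.1 and 61.4 (0.62). Batf, a partner of IRF4 and IRF8, rose (0.51), but did not pass after quantile normalization or loess (0.24 in each; limma, adjusted p = 0.116 and 0.119), without a filter (0.0684) or weighted by fragments (0.39; 0.213). Irf2bpl, related to IRF2-binding proteins, fell (-0.10). The call of Irf2bpl was lost without each library except WT replicate 3 (limma, adjusted p = 0.0912 to 0.104), and also after quantile normalization (-0.041) or loess (-0.031), weighted by fragments (-0.061) or without the trend (adjusted p = 0.108).

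Among genes that interferon induces, more were higher than lower in KO. Of 18 tested genes on the list of IRF1 and antigen presentation targets (19 listed), 12 were higher and 2 lower, where 29.1% of all genes were higher and 14.2% lower, with a median of 0.25. H2-K1, a class I antigen-presenting molecule, rose from 47.6, 48.6 and 41.6 to 85.6, 75.3 and 80.0 (0.79, SE 0.061), and Gbp2, a guanylate-binding protein, from 4.0, 4.39 and 3.59 to 7.31, 6.75 and 6.38 (0.65). Every WT value of Gbp2 was under the minimum score of 5, so Gbp2 was tested only through its KO values. Psmb10, an immunoproteasome subunit, went the other way, from 50.3, 46.3 and 42.8 to 41.1, 37.2 and 35.7 (-0.28), though it did not pass weighted by fragments (-0.24; limma, adjusted p = 0.106). Of 13 tested ISGF3 targets (15 listed), 7 were higher and 2 lower, against the same shares, with a median of 0.23. Among those higher, Mx1, Mx2 and Oas1a had WT means of 4.39, 4.26 and 3.61, under the minimum score of 5. They were tested only through their KO values, so their calls are no separate support. Oasl2, an antiviral OAS-like protein, rose from 11.4, 9.31 and 7.06 to 25.5, 29.9 and 21.0 (1.37, SE 0.15), and Rtp4 from 6.65, 7.12 and 5.38 to 13.7, 17.1 and 12.2 (1.05). The ISGF3 targets Ifit1 (-0.28) and Rsad2 (-0.29), which encodes viperin, fell; Rsad2 did not pass without a filter (limma, adjusted p = 0.0538). The lists thus contained both directions, and the medians compare with 0.096 over all genes and 0.24 in the quartile that holds Irf1. H2-K1, Gbp2, Ifit1 and Oasl2 have close paralogs, and how the authors placed fragments that map to several of them is not given in the sources used here. Listed genes that lie side by side can also hold the same fragments, so the counts need not be of separate signals.

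The counts of the IRF1 and antigen presentation list depended on the weighting of nuclei and on single libraries: 12 were higher, but 5 when nuclei were weighted by their fragments, 6 after median centring and 7 without KO replicate 1 or without a filter. Of this list, in Int nuclei 7 of 18 were higher and none lower, where 12.7% of all genes were higher and 7.1% lower. In Late nuclei 11 of 16 were higher and 2 lower, where the shares were 32.9% and 18.5%. For ISGF3 targets the counts were 6 of 13 higher and 1 lower in Int and 7 of 12 higher and 2 lower in Late nuclei, against the same shares. Both of these counts include Mx1 and Oas1a, and the Int count of the IRF1 list includes Gbp2. The WT means of these genes over all nuclei were under the minimum score of 5, so their calls in the classes are not taken as separate support either.

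The balance of calls over all genes depended on the scaling. Over all nuclei 67.1% of the calls were higher in KO, against 35.4% after median centring, 46.9% after quantile normalization and 54.0% after cyclic loess. In Int nuclei the shares were 64.2%, 24.4%, 50.7% and 57.5%, and in Late nuclei 64.0%, 47.9%, 46.5% and 52.5%. Median centring shifted the median over all genes tested, as a log2 fold change, from 0.096 to -0.050 over all nuclei and from 0.057 to -0.12 in Int nuclei. Irf1 exceeded the median of all genes by 2.34 under the main scaling and under median centring, by 2.30 under quantile normalization and by 2.22 under loess. Under median centring Irf2 (-0.24), Irf3 (-0.21) and Irf7 (-0.27) passed the threshold as lower in KO over all nuclei, where they were -0.19, -0.16 and -0.22 relative to the median of all genes, as under the main scaling by construction. Relative to that median they were -0.089, 0.014 and -0.064 after quantile normalization and -0.095, 0.0069 and -0.061 after loess, so that the sign for Irf3 turned. Stag2 did not pass over all nuclei under the main scaling (-0.054, limma adjusted p = 0.348). After median centring it passed as lower in KO, over all nuclei (-0.20, limma adjusted p = 0.0202) and in Late nuclei (-0.16, limma adjusted p = 0.0301).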

How the data were processed

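Accessibility was measured in single nuclei of 6 Ter119+ erythroblast libraries, 3 WT and 3 KO, grouped by the labels. The authors deposited a gene score per gene and nucleus, a signal scaled so that each nucleus sums to about 10000. They also deposited a table of nuclei with the counts of fragments, a doublet score and other quality values, genotype, cluster and class per the file headers; it is listed 2 times and the first copy was used. The submitters' processing notes name Cell Ranger and mm10; the aligner and the weighting of fragments are not given in the sources used here. No nuclei were removed, and the median doublet score was 0 in each library. No per-sample columns of unmapped samples were found (0).

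Scores were averaged per library, scaled to a sum of 1000000 and compared as log2(value + 1), which understates the change of low genes. Genes that averaged 5 or more were tested with limma 3.58.1 in R 4.3.3 (lmFit, eBayes with trend, two-sided, Benjamini-Hochberg over all genes tested, threshold 0.05), checked on simulated data. The simulation had independent normal noise and few changed genes. It therefore cannot show how reliable the calls are in these data, where 43.3% of genes passed over all nuclei. Fits used all nuclei, Int nuclei, Late nuclei and clusters with at least 50 nuclei in every library; the difference of the KO effect between classes was fitted on the difference within each library. Single values were compared by exact permutation of libraries (20 arrangements, smallest p 0.1). Clusters were those of the authors. The labels give no batch. Accessibility has no strand, so overlapping genes cannot be told apart. Coordinates are mm10, counted from 1, and promoter windows come from RefSeq (GRCm38.p6), where all 8 members matched.

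Named genes were, by rule, the members and Stag2; the tested gene within 100 kb of each member with the largest absolute fold change, and for Irf1 all tested genes there; the 5 genes not within 1 Mb of Irf1 with the highest correlation to it; and in each pathway list up to 2 of the highest and 2 of the lowest fold changes past the threshold with groups that did not overlap. A gene that the rule names is not reported here. Sowaha, Leap2, Mx1, Mx2 and Oas1a were named after their values were seen. The members and lists were chosen with earlier results of these data known. Alternatives were other scalings, pseudocounts, filters, weights and depths, a replicate block and leaving out each library.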

Additional observations from a re-analysis of the deposited data

How the results depend on the processing

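Irf1 passed the limma threshold under each of 17 alternatives over all nuclei (log2 fold change 1.98 to 2.76), in Int (1.81 to 2.52) and in Late nuclei (2.18 to 2.88). One of these, the filter at a mean of 20, is no separate support. The WT means of Irf1 were 7.07, 7.33 and 5.99 in the 3 sets, so it met that filter only through its KO values. Genes past the threshold over all nuclei numbered 7661, and 4244 with a filter at a mean of 20 or 2415 with nuclei weighted by fragments. In Int nuclei they numbered 3858, and 2419 without a filter, 1921 without the trend, 1662 at 5000 to 10000 fragments and 2547 to 4782 when single libraries were left out, the lowest without KO replicate 1. In Late nuclei they numbered 8161, and 4560 with the filter at 20. Members past the threshold (1 in each) were 4 after median centring, 2 with the replicate block and 1 to 2 when libraries were left out over all nuclei; 3 after median centring and 2 after quantile normalization in Int; and 3 after median centring, 2 without a filter and 1 to 2 when libraries were left out in Late nuclei. The added member without a library was Irf7, over all nuclei without WT replicate 3 or KO replicate 2 (log2 fold change -0.16 and -0.19) and in Late nuclei without KO replicate 2 (-0.22).

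Fold changes near 0 changed sign. Over all nuclei Irf9 was 0.044 after quantile normalization, 0.054 after loess, 0.00095 weighted by fragments and -0.050 to 0.020 when libraries were left out. Irf5 was -0.11 (quantile), -0.12 (loess) and -0.00066 (5000 to 10000 fragments), Irf8 was -0.078 and -0.036, and Irf3 was 0.0036 after loess. In Int nuclei Irf3 was 0.013 (quantile), 0.017 (loess), 0.00067 (5000 to 10000 fragments) and -0.082 to 0.0059 (libraries left out), and Irf5 was -0.069 (median centring), -0.019, -0.031 and -0.031 to 0.21 (libraries left out). Irf9 was -0.16 after median centring and -0.039 to 0.056 when libraries were left out, Irf4 was -0.020 after median centring, Irf8 was -0.023 after quantile normalization and Stag2 was -0.036 to 0.016 when libraries were left out. In Late nuclei Irf8 was -0.17 and -0.13, and Irf9 0.044 and 0.046, after quantile normalization and loess. Among neighbours and pathway genes over all nuclei, Slc22a5 was -0.0039 after median centring, and Emc8 was 0.015 and 0.024 after quantile normalization and loess. Weighted by fragments Exoc2 was 0.033 and Rad50 0.030, and when libraries were left out they were -0.075 to 0.031 and -0.036 to 0.024. The causes were not tested.

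In C5 173 genes passed, and 16 without a filter and 8 to 329 when libraries were left out; Irf1 was 1.49 without a filter (adjusted p = 0.127) and 1.27 to 1.68 when libraries were left out, Irf7 -0.17 to 0.15 and Irf8 -0.019 to 0.52. In C2 0 genes passed, and 1669 without a filter and 0 to 1161 when libraries were left out, with Irf7 at -0.065 to 0.50 and Irf8 at -0.10 to 0.075. For the KO effect in Late less that in Int 1017 genes passed, and 25 at 5000 to 10000 fragments, 0 without a filter, 35 with the trend on the mean difference and 309 to 2211 when libraries were left out; Irf1 was 0.28 to 0.66, Irf3 -0.072 to 0.0060, Irf7 -0.086 to 0.030, Irf8 -0.12 to 0.037 and Irf9 -0.068 to 0.0066. The trend on the mean difference, and no filter for this test and for the clusters, were chosen after seeing the data. Irf1 less its relatives was 2.88 over all and 2.67 in Int nuclei at 5000 to 10000 fragments, and 2.95 in Late nuclei with a pseudocount of 0.1. The difference in the share of nuclei with an Irf1 score above 0 was 24.3 percentage points in Int and 16.8 in Late nuclei without matched depth, against 15.3 and 20.5.

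Whether replicate numbers pair the libraries was not settled. Over all nuclei, the deviations of same-numbered libraries had correlations of -0.12, -0.27 and 0.21, and not every library correlated best with its own number. In Int nuclei the correlations were 0.13, -0.084 and 0.19. In Late nuclei they were 0.087, 0.045 and 0.051, and each library correlated best with its own number. With the replicate number as a block, Irf7 over all nuclei (-0.12, limma adjusted p = 0.0405) and Irf1 in the difference between classes (0.47, adjusted p = 0.0138) passed the threshold. So did Slc22a5 (0.14, adjusted p = 0.0179), whereas Irf2bpl did not (-0.10, adjusted p = 0.0649). The block changed no other call of a member or named gene. With the filter at a mean of 20, the lower-scoring genes of the pathway lists were not tested, so that fewer could be called. The number of nuclei limits C2 and C7, where libraries of WT held as few as 58 and 18 nuclei.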
